A study of Mus musculus with 4 samples.

Results

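The 2 libraries compared here hold immune cells sorted from mouse brains that carried the glioma cell line glioma-005. Mice of the first library received isotype control antibody (IgG), and mice of the second received an antibody against CTLA-4 together with an antibody that depletes CD4 cells, called depletion below. Every barcode with at least 200 genes and at most 10% of its unique molecular identifiers (UMIs) in mitochondrial genes was kept. This left 1444 of 1484 IgG barcodes and 3875 of 3916 depletion barcodes, so that 5319 cells entered the comparison, of 8572 kept cells in the 4 libraries of the series.

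Both groups were C57BL/6 mice, stated as C57BL/6J in the protocol, which were 8 to 12 weeks old when a single cell suspension of the line was placed in the hippocampus. Antibodies were given intraperitoneally from day 7: the rat isotype control LTF-2 in the control arm, and the Syrian hamster anti-CTLA-4 clone 9H10 with the anti-CD4 clone GK1.5 in the depletion arm. Brains were perfused and collected at day 35, and each library pooled 3 tumors. Sorting separated CD45int CX3CR1+ microglia from CD45hi cells, which were divided into CD11b+ myeloid cells, CD3+ T cells and a remainder negative for both. These 4 fractions were mixed at equal ratios and run on 10x Genomics droplets. The series title concerns a partnership of microglia and CD4 T cells in immunity against glioblastoma. The depletion arm differs from the control arm in both antibodies, so the part of each in any difference below cannot be told apart. Shares of cells are given only within 1 sorted fraction, because the mixing set the shares between fractions.

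CTLA-4 is an inhibitory receptor of activated T cells and is abundant on regulatory T cells, the CD4 T cells that depend on the transcription factor Foxp3 and restrain immune responses. Other CD4 T cells help through cytokines such as interferon-gamma and through CD40 ligand. Interferon-gamma, made mainly by T cells and natural killer (NK) cells, binds a receptor of the chains Ifngr1 and Ifngr2, which signals through the kinases Jak1 and Jak2. The signal induces Irf1, guanylate-binding proteins, the T cell attractant Cxcl9 and the class II transactivator Ciita, which switches on the MHC class II genes that present peptides to CD4 T cells. Microglia, the resident macrophages of the brain, carry little MHC class II at rest and gain it under interferon-gamma.

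The stretches of 250 bases before the start of 4 of these genes are shown because the genes of lowest ratio in microglia were mostly MHC class II genes and interferon-gamma targets. They come from RefSeq promoters on GRCm38.p6 and are written 5′ to 3′ on the strand of the gene. H2-Aa encodes the alpha chain of the class II molecule I-A and its window is chr17:34287824-34288073, minus strand. Cxcl9 encodes a ligand of Cxcr3, a chemokine receptor of T cells, and its window is chr5:92328080-92328329, minus strand. Serpina3f encodes a serine protease inhibitor and its window is chr12:104214294-104214543, plus strand. Irf1 encodes a transcription factor that interferon-gamma induces and its window is chr11:53769764-53770013, plus strand. Capitals mark the motif matches described after the sequences.
H2-Aa: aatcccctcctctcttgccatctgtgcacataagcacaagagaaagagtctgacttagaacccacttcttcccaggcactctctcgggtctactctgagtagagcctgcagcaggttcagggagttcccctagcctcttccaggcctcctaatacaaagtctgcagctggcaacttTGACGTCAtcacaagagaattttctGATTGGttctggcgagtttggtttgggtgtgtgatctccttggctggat
Cxcl9: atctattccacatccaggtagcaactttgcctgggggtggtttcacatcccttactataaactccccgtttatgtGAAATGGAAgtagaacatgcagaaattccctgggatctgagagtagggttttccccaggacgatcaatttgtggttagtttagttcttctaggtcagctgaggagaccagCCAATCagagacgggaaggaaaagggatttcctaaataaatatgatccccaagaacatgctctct
Serpina3f: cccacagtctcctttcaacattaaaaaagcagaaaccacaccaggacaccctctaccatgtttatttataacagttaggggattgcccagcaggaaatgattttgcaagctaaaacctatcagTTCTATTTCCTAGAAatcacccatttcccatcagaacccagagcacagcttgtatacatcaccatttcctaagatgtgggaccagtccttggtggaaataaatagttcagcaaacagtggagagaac
Irf1: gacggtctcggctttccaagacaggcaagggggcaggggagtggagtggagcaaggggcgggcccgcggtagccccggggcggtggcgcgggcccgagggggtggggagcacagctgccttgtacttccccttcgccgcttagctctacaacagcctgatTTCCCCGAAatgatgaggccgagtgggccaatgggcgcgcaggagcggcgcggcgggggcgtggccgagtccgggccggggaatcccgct

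In H2-Aa the capitals mark a cyclic AMP response element (CRE, TGACGTCA) from 74 to 67 bases before the start and a Y box (GATTGG) from 49 to 44 bases before it. In Cxcl9 they mark an interferon-stimulated response element type match (ISRE-type, GAAANNGAA) from 175 to 167 bases before the start and a Y box on the opposite strand from 65 to 60 bases before it. In Irf1 they mark a gamma-activated site (GAS, TTCNNNGAA) from 90 to 82 bases before the start. In Serpina3f a GAS match from 121 to 113 bases before the start overlaps an ISRE-type match on the opposite strand from 127 to 119 bases before it, so the capitals run through both. The CRE was added to the search after the H2-Aa sequence had been seen. Both strands of 32851 promoter windows of 250 bases were searched, and 1.55% held the CRE, 14.6% the Y box, 7.02% the GAS and 7.13% the ISRE-type match. Of the 13 genes on the MHC class II list, 10 had a promoter in the table: 7 held the Y box, 1 (H2-Aa) the CRE, 1 (H2-DMb2) the GAS and 1 (Ctss) the ISRE-type match. Of the 24 genes on the interferon-gamma list, 15 had a promoter: 13 held the ISRE-type match, 8 the GAS and 3 (Cxcl9, Cxcl10 and Irgm1) the Y box. A match is a run of letters and not a measured binding site.

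The deposited values are UMI counts. The libraries held 9952379 UMIs in all IgG barcodes and 21471565 in all depletion barcodes, and the median kept cell held 5862 UMIs with IgG and 4455 with depletion. The same barcode occurred in both libraries 1 time. Cells were assigned to broad lineages by the UMIs of marker genes: 234 IgG and 437 depletion cells were microglia, 344 and 970 were monocyte-macrophages, 346 and 1029 were T cells, 141 and 203 NK cells, 69 and 133 B cells, and 43 and 436 neutrophils. Markers that the assignment did not use were summed in each lineage: the 7 microglia check genes came to 33951 CPM (UMIs of the gene scaled to a fixed total) in IgG microglia and 28159 in depletion microglia, and the 5 neutrophil check genes to 48432 and 88113 CPM in neutrophils. The other check sums, IgG before depletion, were 20612 and 16012 CPM in monocyte-macrophages, 19049 and 15158 in NK cells and 3682 and 4534 in B cells. In T cells the check was weaker: 5 of its 7 genes are in the table and summed to 1655 and 1512 CPM, close to the NK check genes in the same cells (1716 and 1866 CPM) and the monocyte-macrophage check genes (1602 and 1554 CPM). With 26 IgG cells, conventional dendritic cells were too few to compare. The IgG library held no plasmacytoid dendritic cells, against 4 with depletion. Cells with markers of several lineages (191 IgG, 466 depletion) or with too few marker UMIs (50 and 164) were left out.

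Each group is 1 library. No difference below has a replicate check or a p-value, and the 95% intervals, exact for a Poisson count, a ratio of counts or a binomial share, cover counting error only. In each lineage UMIs were summed over cells and divided by their total to give CPM. Testing a gene in a lineage required at least 50 UMIs over both libraries and detection in at least 10% of cells on the side with the higher level, so a gene could enter through that side alone. Counts of single genes use a ratio of at least 2, and counts of list members a ratio of at least 1.5. List medians are medians of log2 (depletion / IgG) over the tested members.

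Cd4 (chr6:124864692-124888221, minus strand, mm10), the coreceptor targeted by the depleting antibody, stood at 146 CPM in IgG T cells (348 UMIs) and 4.94 CPM in depletion T cells (24 UMIs). The level in depletion T cells was 29.5-fold lower, with a counting interval of 19.5 to 46.6. Among T cells with any coreceptor UMI, 130 of 210 IgG cells carried Cd4 and neither Cd8a nor Cd8b1, a share of 61.9% (exact interval 55.0 to 68.5). With depletion 11 of 730 did, or 1.51% (0.755 to 2.68). CD8 T cells, which carry Cd8a or Cd8b1 and no Cd4, made up 20.8% of T cells with IgG and 69.8% with depletion. T cells with no coreceptor UMI made up 39.3% and 29.1%. A Cd4 UMI was seen in 0 of 69 IgG and 0 of 133 depletion B cells, which allows up to 4.35% and 2.26% of B cells with a UMI, taking 3 counts as the limit of a count of 0. Cells were also thinned to 1000 UMIs, which left out the 106 IgG and 136 depletion cells below that depth. CD4 T cells were then 45.5% of T cells with a coreceptor UMI with IgG and 0.978% with depletion.

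Foxp3, which defines regulatory T cells, was less abundant after depletion but was not lost. A Foxp3 UMI was found in 111 of 346 IgG T cells (32.1%, interval 27.2 to 37.3) and in 128 of 1029 depletion T cells (12.4%, interval 10.5 to 14.6). At 1000 UMIs per cell the shares were 14.7% and 5.56%, still lower with depletion. None of the B or NK cells of either library held a Foxp3 UMI. The cells with Foxp3 lay in different classes. Of the 128 Foxp3 cells left with depletion, 68 were CD8 T cells, 59 had no coreceptor UMI and 1 was a CD4 T cell. In the IgG library 48 were CD4 T cells, 54 had no coreceptor UMI and 4 were CD8 T cells, the rest carrying both coreceptors. Within CD8 T cells the share with Foxp3 was 5.56% with IgG (4 of 72, interval 1.53 to 13.6) and 9.47% with depletion (68 of 718, interval 7.43 to 11.9), so these intervals overlap. As the background of this class, a Cd8a or Cd8b1 UMI was found in 0 of 69 IgG and 3.01% of depletion B cells, in 0 of 141 and 1.97% of NK cells, in 1.71% and 1.37% of microglia and in 0.291% and 2.27% of monocyte-macrophages, at median depths of 5213 and 2805 UMIs in B cells against 7056 and 4522.5 in CD8 T cells. At 1000 UMIs per cell the Foxp3 share of CD8 T cells was 0 of 47 with IgG, which allows up to 6.38%, and 15 of 505 or 2.97% with depletion.

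**Figure D1:**
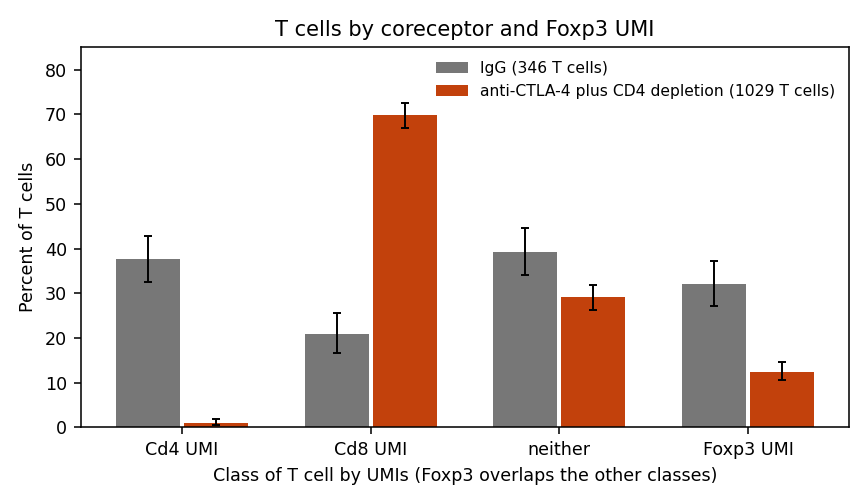
Percent of T cells (y axis) with a Cd4 UMI only, a Cd8a or Cd8b1 UMI only, no coreceptor UMI, or a Foxp3 UMI (x axis), in 346 IgG T cells (grey) and 1029 depletion T cells (orange); bars are shares and lines exact 95% binomial intervals. CD4 T cells went from 37.6% with IgG to 1.07% with depletion, CD8 T cells from 20.8% to 69.8%, and Foxp3 cells from 32.1% to 12.4%.

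Over all T cells, 24 of 5294 tested genes (0.453%) were at least 2-fold higher with depletion and 107 (2.02%) were at least 2-fold lower, and this comparison mixes the shift of classes with differences within them. At 1.5-fold, the limit for lists, 2.27% of tested genes were higher and 9.2% lower, around a median log2 ratio of -0.11. Genes of regulatory T cells were the group that was lower most often: 10 of 13 tested members of the regulatory T list were lower and 1 was higher, with a median of -1.23. Tnfrsf4, which encodes the costimulatory receptor OX40, stood at 592 CPM with IgG and 167 with depletion. Izumo1r, the folate receptor 4 of regulatory T cells, stood at 209 and 66.7 CPM, and Foxp3 itself at 141 and 60.1 CPM. Ctla4 was at 279 CPM with IgG and 157 with depletion. The exception was Itgae, the CD103 integrin chain that binds E-cadherin, at 45.2 and 93.9 CPM. Of the 4 tested genes of the helper T list, Il1rl1 (the interleukin-33 receptor, 66.1 and 18.5 CPM), Zbtb7b (the CD4 lineage factor ThPOK, 26.8 and 10.3 CPM) and Cd40lg (CD40 ligand, 46.4 and 24.5 CPM) were lower, and Gata3 was at 136 and 92.1 CPM.

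Other genes of the largest differences in T cells were Sv2c, a synaptic vesicle protein, 5.96-fold lower, Itih5 5.53-fold lower, Swap70 4.59-fold lower and Tspan32 3.44-fold lower. In the other direction, Gzmb, the granzyme B of killer cells, stood at 139 CPM with IgG and 421 with depletion, and Cd8b1 at 227 and 636 CPM. Serpinb1a was 7.85-fold higher (interval 5.20 to 12.4), Aqp3 3.02-fold, Tmem176a 3.00-fold, Ramp1, part of the receptor for the neuropeptide CGRP, 2.85-fold and Tmem176b 2.81-fold. S100a8, a neutrophil protein, was also among the 8 highest at 2.51 and 23.3 CPM; the 5 neutrophil check genes together stood at 10.5 CPM in IgG T cells and 52.9 CPM in depletion T cells, and their part in this difference was not tested. The proliferation list had 6 of 12 tested members lower and 0 higher with a median of -0.60, led by the tubulin Tuba1b (317 and 126 CPM) and Pcna, the clamp of DNA replication (89.95 and 42.6 CPM). The checkpoint and exhaustion list had 6 of 12 lower and 0 higher, with a median of -0.63, and Tnfrsf4, Tnfrsf18 and Ctla4 count under both this list and the regulatory T list. With median-of-ratios scaling 36 genes were higher and 71 lower in place of 24 and 107.

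Ifng, which encodes interferon-gamma, came from several classes of cell in the IgG library. It was measured at 133 CPM in IgG CD4 T cells (interval 111 to 158, 127 UMIs), at 67.6 CPM in IgG CD8 T cells (48.5 to 91.7, 41 UMIs) and at 191 CPM in IgG NK cells (161 to 225, 143 UMIs). In the depletion library Ifng stood at 47.3 CPM in CD8 T cells (40.5 to 54.9, 174 UMIs) and at 109 CPM in NK cells (85.9 to 136, 78 UMIs), and the 11 CD4 T cells held 0 UMIs. In NK cells the ratio was 0.569 (0.426 to 0.754), but 70 of the 143 IgG NK UMIs came from 1 cell. Without that cell, a step chosen after seeing the data, IgG NK cells stood at 98.6 CPM and the ratio was 1.1 (0.790 to 1.54), in the other direction. Without the top cell of each library the levels were 98.6 and 71.3 CPM and the ratio 0.723 (0.495 to 1.05), an interval that includes no difference. For CD8 T cells the ratio was 0.70 with an interval of 0.496 to 1.01, which includes no difference. Over all kept cells Ifng was 36.4 CPM with IgG and 14.0 CPM with depletion; this value also reflects how the sorted fractions were mixed. Microglia held 0 Ifng UMIs in both libraries.

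**Figure D2:**
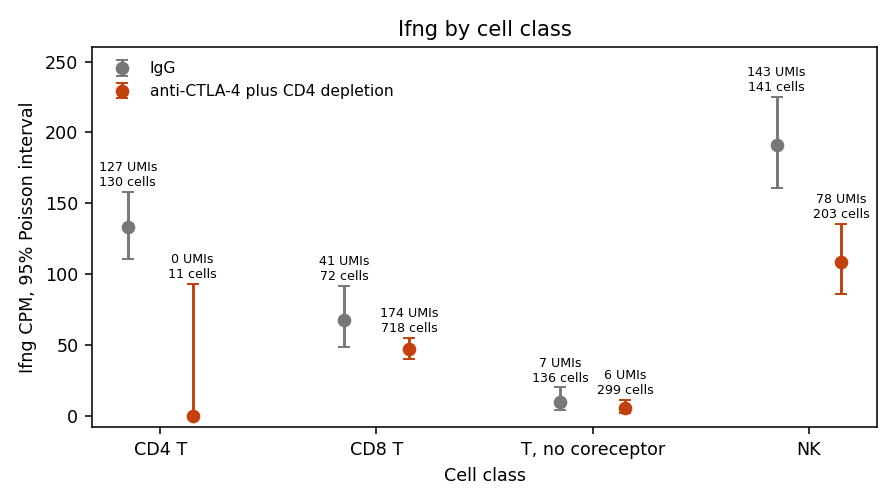
Ifng level in CPM (y axis) by cell class (x axis) in the IgG library (grey) and the depletion library (orange); points are summed UMIs over the total and lines exact 95% Poisson intervals. IgG NK cells stand at 191 CPM, of which 1 cell holds 70 of 143 UMIs, IgG CD4 T cells at 133 CPM and depletion NK cells at 109 CPM, and the depletion CD4 class of 11 cells holds 0 UMIs.

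Helper cytokine genes were found in CD8 T cells with depletion. Cd40lg, which was at 96.4 CPM in IgG CD4 T cells, was at 4.95 CPM in IgG CD8 T cells (3 UMIs) and 25.8 CPM in depletion CD8 T cells (95 UMIs), a ratio of 5.22 with an interval of 1.73 to 25.8. Il2, the T cell growth factor, rested on 1 UMI in IgG CD8 T cells and 62 in depletion CD8 T cells, or 1.65 and 16.9 CPM. Il17a, a cytokine of type 17 lymphocytes, had 0 UMIs in IgG CD8 T cells and 14 in depletion CD8 T cells (3.81 CPM). More of its UMIs lay in T cells without a coreceptor UMI. It had 2 UMIs in 136 such IgG cells and 31 in 299 such depletion cells, or 2.79 and 27.3 CPM. These 3 genes lie outside the naming rule and were chosen after their values had been seen.

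Interferon-gamma target genes were lower with depletion in each of the myeloid lineages compared. Of the 24 listed genes, 18 of 19 tested were at least 1.5-fold lower and 0 higher in microglia, against 13.9% lower among all tested genes, with a list median of -1.34 beside -0.09 for all genes. In monocyte-macrophages 19 of 20 were lower and 0 higher, against 16.1% of all genes, with medians of -1.30 and -0.12. In neutrophils 9 of 9 were lower, against 23.3%, with medians of -2.30 and -0.08. Lymphocytes differed among themselves. All 6 tested genes were lower in B cells, against 7.82% of all tested genes (median -0.69, all genes 0.09). This B cell median ranged from -0.85 to -0.23 over the alternatives. In NK cells 4 of 9 were lower, among them Igtp, Socs1 and Gbp7, against 7.95% (median -0.53, all genes -0.04). In CD8 T cells 0 of 12 were lower, against 8.39%, 2 (Gbp3 and Wars) were higher, against 11.6%, and the median was 0.30 beside 0.04 for all genes.

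**Figure D3:**
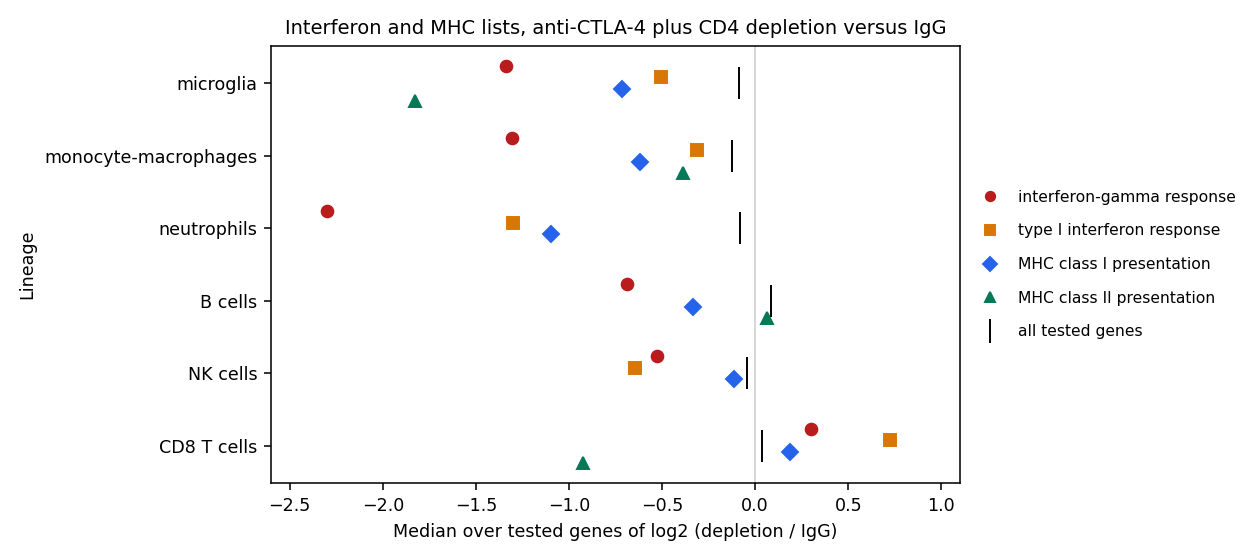
Median log2 ratio of depletion to IgG (x axis) over the tested members of 4 gene lists (coloured symbols) and over all tested genes (black ticks), by lineage (y axis); lists with few tested members in a lineage are not drawn. The interferon-gamma list lies at -2.30 in neutrophils, -1.34 in microglia and -1.30 in monocyte-macrophages and at 0.30 in CD8 T cells, while the MHC class II list lies at -1.82 in microglia, -0.92 in CD8 T cells and 0.06 in B cells.

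In microglia 9 of 11 tested genes of the MHC class II list were lower and 0 higher, with a median of -1.82. In monocyte-macrophages 1 of 11 was lower, Ciita, with a median of -0.39, and in B cells 0 of 11 moved in either direction, with a median of 0.06. In neutrophils, of 3 tested, Cd74 was higher (128 and 544 CPM, with 222 of the 525 depletion UMIs in 1 cell), Ifi30 lower (319 and 137 CPM) and Ctss within 1.5-fold, and in NK cells, of 2 tested, H2-Ab1 was higher (36.1 and 57.1 CPM). In CD8 T cells, where their levels are low, 5 of 8 were lower against 8.39% of all genes, H2-Aa, H2-Ab1, H2-Eb1, H2-DMa and Cd74, and the median of -0.92 ranged from -1.06 to -0.13 over the alternatives. Cd74 there stood at 203 and 73.4 CPM, with 51 of the 123 IgG UMIs in 1 cell, and its log2 ratio turned to 0.29 under a stricter assignment of cells. The MHC class I list had 11 of 18 lower in microglia (median -0.72), 9 of 18 in monocyte-macrophages (-0.62) and 13 of 15 in neutrophils (-1.10), 3 of 16 in B cells and 0 of 18 in CD8 T cells, with 0 higher in each. The type I interferon list had 9 of 19 lower in microglia (median -0.50), 7 of 22 in monocyte-macrophages (-0.31) and 10 of 11 in neutrophils (-1.30) with 0 higher, whereas in CD8 T cells 9 of 13 were higher and 0 lower (0.72). Among all tested genes, 13.9% were lower in microglia, 16.1% in monocyte-macrophages and 23.3% in neutrophils. In B cells 7.82% were lower, and in CD8 T cells 8.39% were lower and 11.6% higher. Scaling by the median of ratios moved the median of all genes to 0.03 in microglia and monocyte-macrophages, 0.02 in T cells and 0.26 in neutrophils, and totals without ribosomal and mitochondrial genes moved it to -0.09 in CD8 T cells. Every list median in this and the previous paragraph kept its sign under each alternative tried except that of class II in B cells, which ranged from -0.14 to 0.14.

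Microglia of the depletion library carried less MHC class II RNA than microglia of the IgG library. H2-Aa, whose start carries the CRE and Y box shown above, stood at 4767 CPM with IgG and 929.9 with depletion, a level 5.13-fold lower (interval 4.91 to 5.36). H2-Ab1, the I-A beta chain, stood at 4649 and 985 CPM, and H2-Eb1, the I-E beta chain, at 3598 and 800.3 CPM. Cd74, the invariant chain that holds class II molecules until they are loaded, stood at 13129 and 2908 CPM. All of these were between 4.50-fold and 5.13-fold lower with depletion. H2-Oa, a chain of the class II loading modulator, was at 261 and 68.1 CPM. Ciita, the transactivator itself, had too few UMIs to be tested: 35 UMIs with IgG and 8 with depletion, in 12.4% and 1.83% of microglia. The 2 members within 1.5-fold were a protease and a reductase of the endosome, Ctss at 11862 and 9902 CPM and Ifi30 at 878 and 1099 CPM, and both are named as the exceptions of their list.

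**Figure D4:**
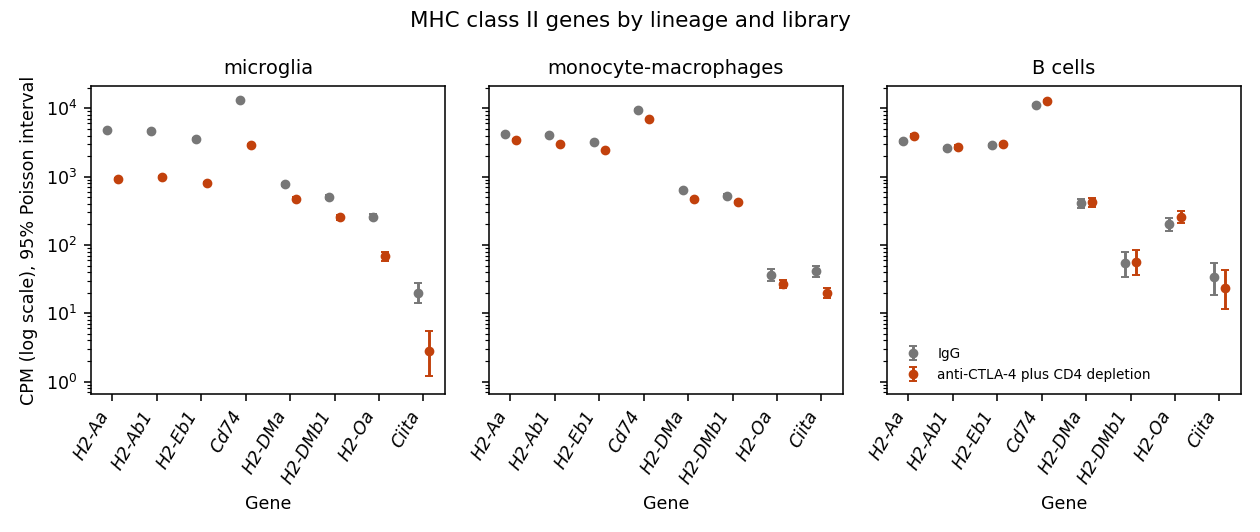
Level in CPM on a log axis (y axis) of MHC class II genes (x axis) in microglia, monocyte-macrophages and B cells, IgG grey and depletion orange, with exact 95% Poisson intervals. In microglia H2-Aa goes from 4767 to 929.9 CPM, while in monocyte-macrophages it goes from 4257 to 3495 CPM.

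In single microglia the same genes were low in most depletion cells. The UMIs of H2-Aa, H2-Ab1, H2-Eb1 and Cd74 together had a median of 241 per 10000 UMIs in IgG microglia, with quartiles of 139.9 and 339.8. In depletion microglia the median was 22.1, with quartiles of 4.81 and 71.2. The level that 74.8% of IgG microglia exceeded was exceeded by 10.8% of depletion microglia. In monocyte-macrophages the median was 74.9 with IgG and 42.9 with depletion, with broad and overlapping ranges (quartiles 9.14 and 319 against 2.36 and 256). B cells had medians of 228 and 246. The 26 IgG and 33 depletion conventional dendritic cells, too few to compare, had medians of 314 and 334. Their monocyte-macrophage assignment genes summed to 7100 and 4840 CPM, above the dendritic assignment genes at 1570 and 1727 CPM. Among cells deep enough for thinning to 1000 UMIs, an H2-Aa UMI was found in 82.9% of 216 IgG and 34.6% of 428 depletion microglia. In NK cells, which carry little class II, the shares were 3.55% of 141 and 2.99% of 201. In T cells they were 5.78% of 346 and 2.83% of 1026. For H2-Eb1 the thinned shares were 5.67% and 0.995% in NK cells and 3.47% and 2.53% in T cells. This background was thus higher with IgG, by an amount that varied with the gene and lineage. Without thinning the H2-Aa shares were 93.6% of 234 and 59.3% of 437 microglia and 14.2% and 9.85% of NK cells. Median depths were 6048 and 5395 UMIs in microglia and 4681 and 3270 in NK cells.

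**Figure D5:**
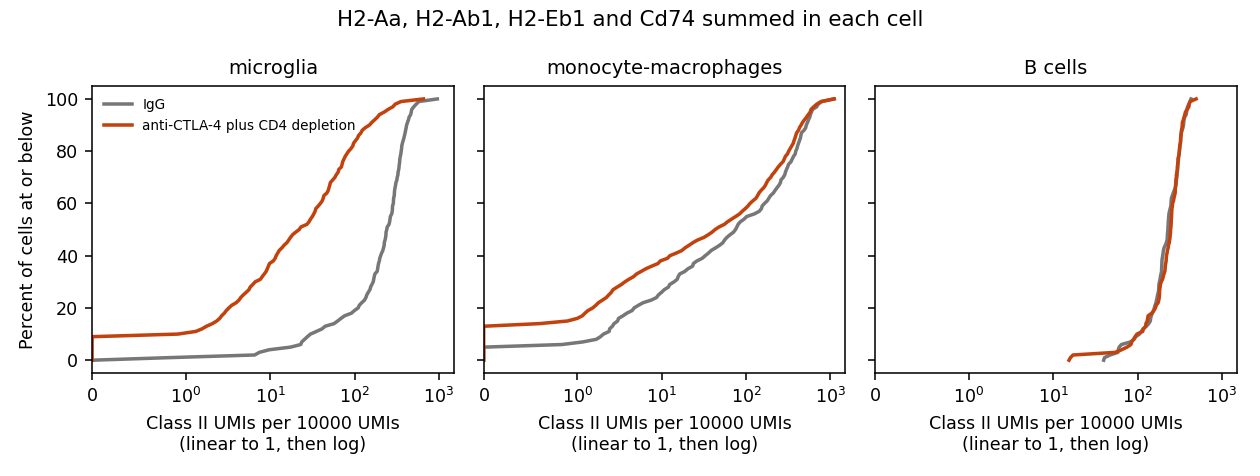
Cumulative percent of cells (y axis) at or below a given summed level of H2-Aa, H2-Ab1, H2-Eb1 and Cd74 per 10000 UMIs (x axis, linear to 1 and logarithmic above), for microglia, monocyte-macrophages and B cells with IgG (grey) and depletion (orange). The microglia curves are apart along most of their length, with medians of 241 and 22.1, and the B cell curves run together, with medians of 228 and 246.

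Over all genes of microglia, 96 of 6392 tested genes (1.5%) were at least 2-fold higher with depletion and 216 (3.38%) were at least 2-fold lower; at 1.5-fold 6.04% were higher and 13.9% lower. Among the interferon-gamma targets, Cxcl9 stood at 642 CPM with IgG and 158 with depletion, 4.05-fold lower (interval 3.63 to 4.53). Serpina3f, which is not on the interferon-gamma list and whose window holds the overlapping matches, stood at 47.5 and 3.86 CPM, 12.3-fold lower (6.53 to 25.6). Gbp2, a guanylate-binding protein of cell-autonomous defence, stood at 356 and 91.7 CPM. Irf1 was at 148 and 62.2 CPM. Cxcl10, another ligand of Cxcr3, was the exception at 317 and 349 CPM. The genes that receive the signal did not show this difference: Ifngr1 was at 506 and 487 CPM, Ifngr2 at 193 and 196 CPM, Jak1 at 99.1 and 122 CPM and Jak2 at 28.1 and 26.0 CPM. These 4 were chosen after their values had been seen.

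Class I genes were lower as well. Nlrc5, the class I transactivator, stood at 56.7 CPM with IgG and 12.6 with depletion, H2-T23, a nonclassical class I gene, at 931 and 394 CPM, and Tap1, a chain of the peptide transporter, at 269.7 and 118 CPM. The classical heavy chains differed less, with H2-K1 at 4428 and 2653 CPM and H2-D1 at 5451 and 3775 CPM. Of the type I interferon list, Oasl2 (161 and 57.9 CPM) and Oas3 (21.8 and 7.73 CPM), of the family that senses double-stranded RNA, had the lowest ratios. Ifit1 (44.1 and 46.7 CPM), an antiviral gene of the same list, had an interval of 0.794 to 1.42 that includes no difference. The complement gene C3 stood at 109 and 27.0 CPM and C4b at 581 and 265 CPM, the 2 lowest ratios of a phagocytosis and complement list with 7 of 22 lower and 1, the scavenger receptor Msr1 (6.30 and 21.1 CPM), higher.

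Homeostatic microglia genes had 5 of 14 lower: P2ry13 (255 and 117 CPM), Maf (529 and 263 CPM), Entpd1 (328 and 179 CPM), Selplg (1225 and 756 CPM) and Cx3cr1, the fractalkine receptor (3164 and 2037 CPM). The list had 1 member higher, Fcrls, at 332 and 655 CPM, and 8 within 1.5-fold, with a median of -0.36. Among all tested genes of microglia 13.9% were lower and 6.04% higher. Disease-associated microglia genes showed no common direction, with a median of -0.01 that ranged from -0.03 to 0.11 over the alternatives. Spp1, osteopontin, was higher at 271 and 606 CPM, as was the fatty acid carrier Fabp5 at 37.8 and 161 CPM, while Lpl (95.1 and 40.7 CPM), Ccl6 (149.5 and 88.8 CPM) and Itgax (67.0 and 39.0 CPM) were lower. Of the cytokine list Ccl3 (77.3 and 239 CPM), Ccl4 (201 and 496 CPM) and Tnf (51.0 and 88.5 CPM) were higher, and the chemokines Ccl7 and Ccl5 and the cytokine subunit Ebi3 were lower. In IgG microglia 200 of the 351 Ccl4 UMIs came from 1 cell. The proliferation list had 4 of 13 higher and 0 lower, with a median of 0.50: Birc5, an inhibitor of apoptosis that acts in mitosis (26.3 and 70.9 CPM), Stmn1 (119 and 239 CPM), Hmgb2 (179 and 336 CPM) and Mki67 (37.2 and 59.0 CPM).

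The genes with the largest higher levels in depletion microglia were the neutrophil proteins S100a9 (0 and 54.8 CPM, at least 31.9-fold higher against a floor of 3 UMIs) and S100a8 (4.01 and 72.7 CPM), then Htra3, Ifitm1, Vim, Fabp5, Galnt6 and Emilin2. Single cells weighed on the first of these: 1 depletion cell held 69 of the 156 S100a9 UMIs and 113 of the 207 S100a8 UMIs. Vim, the intermediate filament vimentin, stood at 24.1 and 111 CPM, and Htra3, a secreted protease, at 4.01 and 32.0 CPM. The 2 marker lists of monocyte-macrophages went in opposite directions. The 12 assignment genes summed to 419 CPM in IgG microglia, with 1 of them at 0, and to 777 CPM in depletion microglia, with none at 0. The 8 monocyte-macrophage check genes, which include Vim, were lower with depletion at 2134 and 1836 CPM. The 11 neutrophil assignment genes summed to 2.29 CPM (8 at 0) and 24.2 CPM (2 at 0). Their part in the microglial differences was not tested. With median-of-ratios scaling 133 microglial genes were higher and 161 lower in place of 96 and 216. Of the 8 genes named as lowest, which also include the vascular growth factor receptor Flt1 (32.1 and 3.51 CPM), 6 were still past 2-fold at 1000 UMIs per cell, and of the 8 named as highest 0 were.

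In monocyte-macrophages 116 of 6242 tested genes (1.86%) were at least 2-fold higher and 226 (3.62%) at least 2-fold lower; at 1.5-fold 6.73% were higher and 16.1% lower. Cxcl9 was again among the lowest genes. It stood at 839 CPM with IgG and 172 with depletion, 4.87-fold lower (interval 4.56 to 5.21), and a Cxcl9 UMI was present in 29.9% of IgG and 13.9% of depletion cells. Gbp2 stood at 974 and 305 CPM, Serpina3g, a protease inhibitor induced by interferon-gamma, at 104 and 27.5 CPM, and Iigp1, an immunity-related GTPase, at 113 and 32.2 CPM. Cxcl10 was again the member within 1.5-fold, at 644 and 555 CPM. Cd300e, a receptor of patrolling monocytes, was 5.67-fold lower, the chemokine Ccl24 3.68-fold lower (1 IgG cell held 121 of its 778 UMIs), the fatty acid receptor Cd36 3.99-fold lower and the cationic amino acid transporter Slc7a2 4.11-fold lower.

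The costimulation list had 4 of 7 lower and 0 higher, with a median of -0.77: Cd83 (109 and 36.8 CPM), Cd40, the receptor of CD40 ligand (78.6 and 36.8 CPM), Cd86, a ligand of CD28 and CTLA-4 (109 and 63.7 CPM), and Il15 (29.4 and 12.9 CPM). The list of gamma-chain cytokine receptors and their signalling had 7 of 10 lower and 0 higher (median -0.92), led by Socs1, a brake on cytokine signalling that the interferon-gamma list also holds (243 and 100.5 CPM), and Il21r (73.1 and 30.7 CPM). Ciita was at 41.0 and 19.8 CPM, with H2-Aa at 4257 and 3495 CPM and Cd74 at 9586 and 7020 CPM, differences below 1.5-fold. Of the immunosuppressive macrophage list 5 of 10 were lower: the mannose receptor Mrc1 (76.9 and 23.5 CPM), Pdcd1lg2, the PD-1 ligand PD-L2 (20.9 and 5.75 CPM), Il1rn (262 and 109.6 CPM), Cd274, the ligand PD-L1 (75.5 and 40.5 CPM), and Tgfb1 (431 and 250.4 CPM). Its member Thbs1, thrombospondin 1, was higher (239 and 400 CPM). The lipid list had 5 of 14 lower and 0 higher (median -0.35): Cd36 (50.9 and 12.8 CPM), Lpl (52.3 and 13.6 CPM), Abcg1, Abca1 and Plin2. The hypoxia and glycolysis list had 6 of 17 lower and 0 higher (median -0.41), led by the glycolytic genes Pfkl (80.0 and 39.8 CPM) and Hk2 (287 and 156 CPM).

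In the other direction Saa3 (chr7:46711998-46715700, minus strand, mm10), an acute-phase serum amyloid, stood at 9.23 CPM with IgG and 530 with depletion, a ratio of 57.5 (interval 39.4 to 87.3). It was carried by a subset, with a UMI in 2.33% of IgG and 12.9% of depletion cells. S100a8 (99.8 and 1239 CPM) and S100a9 (93.0 and 753 CPM) came next, then Rgs1, a regulator of chemokine receptor signalling (18.1 and 127 CPM), and Klhl6 (19.8 and 119 CPM). Cxcl14, a chemokine, stood at 7.52 and 55.0 CPM, and Mt1, a metal-binding metallothionein, at 87.8 and 443 CPM. The other gene of the 8 was the cold-inducible RNA-binding protein Cirbp (38.3 and 201 CPM). The neutrophil check genes, of which S100a8 and S100a9 are members, summed to 366 CPM with IgG and 2222 with depletion in these cells, and the 11 neutrophil assignment genes to 168 and 548 CPM. Their part in the higher genes was not tested. With median-of-ratios scaling 173 genes were higher and 122 lower in place of 116 and 226, so which direction held more genes depended on the scaling.

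Neutrophils made up 11.1% of neutrophils and monocyte-macrophages together with IgG (43 of 387, interval 8.16 to 14.7) and 31.0% with depletion (436 of 1406, interval 28.6 to 33.5). Only 43 IgG neutrophils with a median of 2372 UMIs were available, so ratios in this lineage are the least precise. Of 2803 tested genes 301 (10.7%) were at least 2-fold higher and 266 (9.49%) lower; at 1.5-fold 19.4% were higher and 23.3% lower. Interferon targets were among the lowest genes. Cxcl10 stood at 502 CPM with IgG (55 UMIs, 31 of them in 1 cell) and 22.8 with depletion, Gbp2 at 675 and 105 CPM and Igtp, an immunity-related GTPase, at 347 and 59.0 CPM. Rsad2, the antiviral enzyme viperin, stood at 548 and 69.4 CPM and led a type I interferon list in which the 1 tested member within 1.5-fold was Bst2. The peptide transporter genes Tap2 (209.9 and 57.0 CPM) and Tap1 (246 and 68.3 CPM) led the class I list.

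The neutrophil state list split, with 6 of 14 higher and 7 lower, and its median of -0.28 ranged from -0.49 to 0.47 over the alternatives. Ngp, a granule protein of young neutrophils, had 0 UMIs with IgG and stood at 428 CPM with depletion, at least 15.6-fold higher against a floor of 3 UMIs. Cxcl2, a neutrophil attractant, stood at 256 and 1810.1 CPM, Wfdc17 at 1387 and 6083 CPM, and Ifitm1 at 1351 and 4776 CPM. S100a8 stood at 21829 and 44486 CPM. Lower were Ptgs2, which encodes cyclooxygenase 2 (347 and 34.2 CPM), Cd274 (219 and 44.5 CPM), Ccl4 (940.0 and 213 CPM) and Il1rn (1077 and 257 CPM). The 8 largest on the higher side further held Klf9, Rgs1 and Rasgrp2 with 0 IgG UMIs, Ccl5 and Per1 with 1 IgG UMI each, Id2 (201 and 1808 CPM) and Wfdc21 (209.9 and 1585 CPM). Tes (310.3 and 62.1 CPM) and Clec2d (392 and 81.8 CPM) completed the lower side. With median-of-ratios scaling 478 genes were higher and 115 lower in place of 301 and 266, which turns a near-even split into a mostly higher one. The neutrophil assignment genes themselves summed to 7292 CPM with IgG and 14138 with depletion, and the part of this difference in the others was not tested.

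CD8 T cells were compared between 72 IgG cells (median 7056 UMIs) and 718 depletion cells (median 4522.5 UMIs). Of 5206 tested genes 161 (3.09%) were at least 2-fold higher and 99 (1.9%) at least 2-fold lower; at 1.5-fold 11.6% were higher and 8.39% lower. Type I interferon genes were higher, with Ifit3 at 52.8 CPM with IgG and 136 with depletion, Mx1 at 9.89 and 28.0 CPM and Usp18 at 19.8 and 41.1 CPM. The regulatory T list had 6 of 10 higher and 1, Ikzf4, lower, with a median of 0.85. Ctla4 stood at 34.6 CPM with IgG (21 UMIs) and 129 with depletion (476 UMIs), a ratio of 3.74 (interval 2.42 to 6.10), and Itgae at 21.4 and 83.2 CPM. Foxp3 had too few cells to be tested, at 18.1 and 41.6 CPM. When the CD8 T cells with a Foxp3 UMI were left out, a step chosen after seeing the data, 156 genes were higher and 93 lower.

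NK receptor genes were lower in CD8 T cells, with 7 of 10 lower, 0 higher and a median of -0.81. Klrc1, which encodes the inhibitory receptor NKG2A, stood at 206 and 55.5 CPM, and Cd244 at 36.3 and 7.61 CPM. NK markers moved with them: in these CD8 T cells the 6 NK assignment genes summed to 264 CPM with IgG (2 at 0) and 61.4 CPM with depletion (1 at 0), and the 6 NK check genes, which include Gzma, Prf1, Nkg7 and Klrd1, to 3627 and 2191 CPM with none at 0, above the T cell check genes at 1373 and 1572 CPM. Their part in the NK receptor and cytotoxicity differences was not tested. Cytotoxicity genes were divided, with 7 of 16 lower and 3 higher (median -0.47). Granzyme A (Gzma, 458 and 213 CPM), perforin (Prf1, 28.0 and 11.4 CPM), Gzmk (145 and 71.0 CPM) and Ccl4 (471 and 223 CPM) were lower. Granzyme B (Gzmb) was higher at 130.2 CPM with IgG and 360.5 with depletion, a ratio of 2.77 (interval 2.20 to 3.52), as were its inhibitor Serpinb9 (26.4 and 51.4 CPM) and the granule proteoglycan Srgn (939.6 and 1636 CPM). Checkpoint genes were also split, 4 of 14 in each direction: Icos (69.2 and 207 CPM), Ctla4, Tnfrsf4 and Tnfrsf18 were higher, and Lag3 (183 and 68.5 CPM), Btla, Cd244 and Cd160 were lower. Pdcd1, which encodes PD-1, was at 247 and 186 CPM. The type 1 effector list had Cxcr3, the receptor of Cxcl9 and Cxcl10 (67.6 and 148 CPM), Il18r1 (89.0 and 194 CPM) and Bhlhe40 higher, and Tbx21, the factor T-bet (39.6 and 20.9 CPM), and Runx3 lower.

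The 8 highest genes in CD8 T cells were Tmem176b (8.24 and 80.7 CPM), Tmem176a (14.8 and 79.4 CPM), Tnfrsf25, Ramp1 (36.3 and 163 CPM), Serpinb1a, the nuclear receptor Rora (34.6 and 151 CPM), Dgat1 and Gna15. Markers of type 2 lymphoid cells, of which Rora is 1 of 7, summed to 85.7 CPM in IgG CD8 T cells, with 4 at 0, and to 322 CPM in depletion CD8 T cells, with none at 0, while over all T cells they summed to 505 and 345 CPM; their part in these higher genes was not tested. The lowest were the kinase Pim2 (65.9 and 14.7 CPM), Klrc1, Cd244, the transcription factor Irf8 (162 and 46.8 CPM), Srm, Nedd4, Lat2 and Cd74. Of the 98 IgG Irf8 UMIs 32 came from 1 cell. Totals without ribosomal and mitochondrial genes gave 101 genes higher and 160 lower in place of 161 and 99, which reverses which direction held more.

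In NK cells 22 of 3496 tested genes (0.629%) were at least 2-fold higher and 56 (1.6%) at least 2-fold lower; at 1.5-fold 4.18% were higher and 7.95% lower. Xcl1, which attracts cross-presenting dendritic cells, stood at 1072 CPM with IgG and 436 with depletion, 0.407 times the IgG level (interval 0.356 to 0.464). Like Ifng, it is on the type 1 effector list, whose median over 13 tested members was -0.41. The type I interferon list had 5 of 9 lower and 0 higher (median -0.64): Usp18 (62.8 and 23.7 CPM), Isg20, Isg15 (104 and 51.5 CPM), Bst2 and Ifi27l2a. The checkpoint list had 4 of 8 lower: Cd160 (57.5 and 25.1 CPM), Nr4a2, Batf and Tnfrsf9. Members of the cytotoxicity list mostly lay within 1.5-fold, with Gzma at 12876 and 10589.9 CPM, Gzmb at 1473 and 1013 CPM and Prf1 at 258 and 192 CPM. The 2 lower were Gzmc and the cytokine gene Ifng, the latter through the 1 IgG cell described above. The 1 higher was the chemokine gene Ccl5 (11638 and 19549.9 CPM). The genes of lowest ratio were Pim2 (126 and 25.1 CPM), Ly6a (58.8 and 12.5 CPM), Exosc2, Ap3d1, Lars2, Styk1, Abcg2 and Ppa1. Those of highest ratio were Apoe, Stmn1 (41.4 and 139 CPM), Sdhaf1, Cenpa, Klra1, an inhibitory Ly49 receptor (56.1 and 142 CPM), Tpm1, Fcho2 and Upf3b. The Apoe value rested on 1 depletion cell that held 317 of 385 UMIs.

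MHC class II levels were similar in B cells of both libraries. H2-Aa, H2-Ab1, H2-Eb1 and Cd74 are among the 11 class II genes within 1.5-fold, with H2-Aa at 3284 CPM with IgG and 3976 with depletion and Cd74 at 11192 and 12901 CPM. Of 1917 tested genes 27 (1.41%) were at least 2-fold higher and 64 (3.34%) lower; at 1.5-fold 10.3% were higher and 7.82% lower. The naive and memory list had 4 of 6 higher and 0 lower (median 0.77), among them Klf2, which keeps lymphocytes in circulation (471 and 999 CPM), Satb1 (60.3 and 109 CPM) and S1pr1 (125 and 202 CPM). The interferon-gamma list, all 6 lower, was led by Irgm1 (152 and 73.5 CPM). The largest differences on the lower side came from a few IgG cells. Jchain, which joins secreted antibodies, had 8238 UMIs with IgG and 0 with depletion, and 6 IgG cells held 8235 of them. Without those 6 cells 13 genes were lower in place of 64, and Tmem176a, Xbp1, Creld2 and Ly6c2, 4 of the 8 named, turned to higher log2 ratios of 0.35, 0.25, 0.39 and 1.36. The other 4, Jchain, Tmem176b, Fam46c and Serpina3f, then had log2 ratios of CPM + 5 of -1.38, -1.05, -1.61 and -1.85, and 0 of the 8 were both tested and 2-fold lower without those cells. The higher side included Sesn1 (31.3 and 112 CPM), Apbb1ip, S100a6, Wbp11, Lsm1, Cpsf6 and March1, and 1 IgG B cell held 12784 of the 12790 hemoglobin UMIs of that class.

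Among the lineages compared, Cd4, Foxp3, Ifng and Ctla4 were near 0 outside T and NK cells. In microglia they had 1, 1, 0 and 4 UMIs with IgG and 0, 1, 0 and 1 with depletion, and in monocyte-macrophages 3, 2, 3 and 3 UMIs with IgG and 0, 1, 1 and 9 with depletion. In B cells they had 0, 0, 0 and 4 UMIs with IgG and 0, 0, 3 and 1 with depletion, and in neutrophils 0, 0, 0 and 1 with IgG and 0, 3, 0 and 2 with depletion. NK cells had Ctla4 UMIs only in small number, 1 with IgG and 4 with depletion, and no Cd4 or Foxp3 UMI. Cells assigned to no lineage are not part of these counts and also held such UMIs. Over all kept cells Cd4 had 397 UMIs with IgG and 42 with depletion, of which T cells held 348 and 24. Ctla4 had 781 and 917 UMIs, of which T cells held 666 and 763.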

How the data were processed

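Droplet 3′ single-cell RNA libraries were deposited as gene by cell tables of UMI counts (27998 genes), with no normalization. Per the submitters' processing notes, the authors used Cell Ranger 3.1.0 and build mm10. Each group is 1 library that pools 3 tumors, so no test across samples was possible and no p-value was computed. Barcodes under 200 genes or over 10% mitochondrial UMIs were dropped. Lineages came from 60 marker genes: a cell needed at least 3 UMIs and 2 different genes of a lineage and at least 0.8 of its weighted marker signal there. Dendritic cells were the exception, set by their own markers with no weight condition. They needed 3 UMIs from 2 genes, or from 3 genes for plasmacytoid cells, and fewer than 3 UMIs of B cell markers. Conventional ones also needed fewer than 3 UMIs of T and of NK cell markers. This rule was set after the marker distributions had been looked at. UMI counts were summed by lineage and library and scaled to CPM. Ratios carry exact conditional binomial intervals, levels exact Poisson intervals and shares Clopper-Pearson intervals, all at 95%. The procedure was tested on simulated data.

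Named genes are, for each lineage, the 8 with the largest log2 ratio of CPM + 5 in each direction among those at least 2-fold apart, without assignment markers and ribosomal, mitochondrial, hemoglobin, immunoglobulin, T cell receptor and sex-linked genes or unnamed models. Added to them are 2 to 4 members of largest ratio from each list described, list members named as exceptions or to complete a count, and Cd4, Foxp3, Ctla4 and Ifng. A few genes that the rule names are not reported here. The genes compared and the 26 gene lists were chosen with earlier results of these data known. Doublets were not removed from the main values: Scrublet in scanpy 1.11.5 called 3 IgG and 12 depletion cells by its own threshold, too few to be useful, so leaving out the highest 5% of scores (77 and 196 cells) was an alternative. Other alternatives were median-of-ratios scaling, other totals, 500 genes per cell, a stricter lineage rule, thinning to 1000 UMIs, a filter of 20 UMIs and a mean over cells. Python 3.11.15, numpy 2.4.6 and scipy 1.17.1 were used.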

Additional observations from a re-analysis of the deposited data

Results flagged for a closer look

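Among the cells assigned to no lineage, which no comparison uses, the 5 mast cell and basophil markers had 89 UMIs in the 630 depletion cells and 12 UMIs in the 241 IgG cells. This stood out because it is signal in cells outside the comparisons that lies above the control library, and 86 of the 89 UMIs and all 12 IgG UMIs came from 1 cell each. The depletion library also held 4 plasmacytoid dendritic cells against 0 in the IgG library, which stood out for the same reason and is too few cells to compare.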

How the results depend on the processing

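Each group is 1 library, so no replicate could be left out, and no paired analysis was possible because each group has a single sample and the columns carry no replicate pairing. Of the recomputed list medians 574 lay within the spread of the list's genes around its main median and 11 outside it. Of 63 lists in a lineage 14 had medians of both signs over the settings, and no direction is given for these: class II (-0.14 to 0.14) and B cell state (-0.65 to 0.35) in B cells, neutrophil state (-0.49 to 0.47) and cytokines (-0.59 to 0.16) in neutrophils, checkpoint (-0.30 to 0.29), gamma-chain receptor, naive and memory, and proliferation in CD8 T cells, disease-associated, cytokine, lipid and hypoxia in microglia, disease-associated in monocyte-macrophages and proliferation in NK cells. Of the recomputed ratios of named genes 902 stayed within counting error, 134 moved beyond it and 6 reversed. The reversals were Cd74 in CD8 T cells, at a log2 ratio of 0.29 under the stricter lineage rule, and in B cells without the 6 Jchain-rich cells Tmem176a at 0.35, Xbp1 at 0.25, Creld2 at 0.39 and Ly6c2 at 1.36, and Ifng in NK cells at 0.14 without the IgG cell that held most of its UMIs, all but the first chosen after seeing the data. The cause of the Cd74 change was not tested.

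Counts of genes past 2-fold depended on depth and filter. Thinning to 1000 UMIs, which leaves fewer UMIs and so fewer genes tested, gave 47 higher and 59 lower in microglia, 23 and 68 in monocyte-macrophages, 103 and 37 in CD8 T cells, 12 and 21 in T cells, 10 and 6 in NK cells, 6 and 7 in B cells and 170 and 119 in neutrophils. A minimum of 20 UMIs with no minimum share of cells, which tests more genes, gave 267 and 509, 362 and 550, 636 and 341, 203 and 483, 117 and 253, 191 and 223, and 712 and 674 in the same order. Median-of-ratios scaling left 122 lower genes in monocyte-macrophages and 71 in T cells and gave 478 higher and 115 lower in neutrophils. Totals without ribosomal and mitochondrial genes gave 101 higher and 160 lower in CD8 T cells. The named genes, 8 in each direction, were often not past 2-fold after thinning to 1000 UMIs. Those still past it were 5 higher and 2 lower in monocyte-macrophages, 2 and 1 in CD8 T cells and 4 and 3 in T cells. They were 1 and 0 in NK cells, 0 and 0 in B cells and 3 and 4 in neutrophils.

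Leaving out the top cell of each gene, an alternative chosen after seeing the data that removes a larger share of the smaller library, gave 318 higher and 44 lower in CD8 T cells and 477 and 161 in neutrophils. B cells without the Jchain-rich cells, also chosen after seeing the data, had 13 lower genes. At 1000 UMIs per cell CD4 T cells were 45.5% of IgG T cells with a coreceptor UMI, Foxp3 cells were 14.7% of IgG and 5.56% of depletion T cells, and Foxp3 cells were 0% of IgG and 2.97% of depletion CD8 T cells. Depth limits the comparisons of neutrophils, B cells and CD8 T cells, with 43, 69 and 72 IgG cells.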

Other observations

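A set of 7 genes that respond to temperature, glucocorticoid, metal ions or the daily clock (Cirbp, Rbm3, Mt1, Mt2, Klf9, Per1 and Tsc22d3) was put together after some of them had been seen among the largest differences. In depletion cells 6 of 6 tested members were at least 1.5-fold higher in microglia (median log2 ratio 1.61), 5 of 6 in monocyte-macrophages (1.96) and 6 of 6 in neutrophils (2.77). In lymphocytes 2 of 3 were higher in CD8 T cells and in NK cells, and 1 of 3 in all T cells and in B cells. Among all tested genes the share at least 1.5-fold higher was 6.04% in microglia, 6.73% in monocyte-macrophages, 19.4% in neutrophils, 11.6% in CD8 T cells, 4.18% in NK cells, 2.27% in T cells and 10.3% in B cells. None of the set was lower in any of these lineages. In microglia Cirbp, a cold-inducible RNA-binding protein, stood at 56.1 CPM with IgG and 158 with depletion, and the related Rbm3 at 262 and 830 CPM. Their part in the other differences between the libraries was not tested.

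Markers of type 2 lymphoid cells summed to 300.5 CPM in the 241 IgG cells of no lineage and to 155 CPM in the 630 such depletion cells. The 5 neutrophil check genes summed to 2549 CPM in IgG B cells and 71.2 CPM in depletion B cells.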
